A study of Mus musculus with 4 samples.

Results

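The genes described here encode 43 enzymes and binding proteins of DNA repair outside homologous recombination, taken by symbol from a deposited expression table of 32230 genes. They cover mismatch repair (5 genes), nucleotide excision repair (11), base excision repair and single-strand break repair (15), non-homologous end-joining (7), translesion bypass (4) and direct reversal (1, Mgmt). All 43 symbols were found in the table. The cells were 4F2A mouse embryonic fibroblasts from male, homozygous, mid-gestation embryos. 4F2A cells carry a doxycycline-inducible cassette of Oct4, Sox2, Klf4 and Myc, so every library, controls included, came from cells in reprogramming. Doxycycline at 2 µg/mL was present for 48 h in medium with LIF. One group received the vehicle DMSO and the other CX-5461, an inhibitor of RNA polymerase I, for 1 h on day 0, and RNA was harvested on day 2. Each group had 2 libraries, numbered 2 and 3. The labels call them parallel replicates and do not call them separate cultures. The p-values therefore reflect the spread between these libraries alone, which may be technical.

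Mismatch repair proteins find wrongly paired bases left behind by replication. Nucleotide excision repair cuts out a short strand around bulky or ultraviolet lesions, while base excision repair begins with a glycosylase that removes a single damaged base, followed by an endonuclease, a gap-filling polymerase and a ligase. End-joining religates broken ends, and translesion polymerases copy past lesions that stall the replicative polymerases. CX-5461 is also known to damage DNA through trapped topoisomerase II and stabilised G-quadruplexes, and DNA damage signalling through p53 is a known barrier to reprogramming.

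Values are TPM, reads per gene scaled to gene length and to a library total of 1000000. A log2 difference is the CX-5461 mean less the DMSO mean of log2(TPM + 1), and it understates changes in low genes. The 14621 genes whose mean reached 1 TPM were tested together with limma, and a gene passed at a Benjamini-Hochberg adjusted p under 0.05. DMSO replicate 3 stood apart in composition, with 15.3% of its TPM in mitochondrially encoded genes where the other libraries had 9.20% to 9.96%. Fibroblast markers were abundant (12 of 12 tested, summed TPM of 9689 to 13316 per library), and 6 of them fell. Of other cell types, 5 of 8 keratinocyte and epithelial markers were tested and none passed (summed TPM 26.5 to 42.4 per library). Of the 5 endothelial markers, Kdr rose and Tek fell, and Pecam1, Cdh5 and Emcn stayed under 0.4 TPM. Of the 6 muscle and neural markers, Des rose, and Myod1 and Myog were listed at 0 in every library. Macrophage and blood markers summed to 583 and 585 TPM with DMSO and to 854 and 954 TPM with CX-5461, most of it Lyz2. Of that list 5 of 8 were tested and 3 rose (Lyz2, Cd14 and Adgre1), while the pan-leukocyte gene Ptprc stood at 0.656 to 1.27 TPM. The 12 S phase genes used for context fell without exception (summed TPM 706 and 612 against 176 and 177), as did 12 mitotic genes (756 and 697 against 33.7 and 35.6). The part of any of these shifts in the results below was not tested.

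Of the 43 repair genes 42 were tested, and 13 of them (30.95%) differed between groups, with 8 higher and 5 lower after CX-5461. Over all genes tested, 19.8% passed, 11.6% as higher and 8.21% as lower. The genes that rose were Polk, Ercc5, Mgmt, Msh6, Rev1, Nhej1, Polb and Xpc, and those that fell were Ung, Neil3, Parp1, Parp2 and Polh. Under median-of-ratios scaling, quantile normalization or rescaling without the most abundant genes, the split became 6 higher and 7 lower, since Polb and Xpc no longer passed and Tdg and Xrcc6 did. The median difference over the 42 genes was 0.05, beside 0.07 over all genes, and its sign changed with the scaling (-0.016 under median-of-ratios and -0.029 under rescaling). The groups did not overlap for 29 of the 42 genes, against a background of 64.5%. Of these, 12 were lower (background 26.3%) and 17 higher (background 38.2%). In bulk RNA, fewer cells that express a gene and less RNA per cell cannot be told apart. With 2 libraries a group, the smallest p of an exact two-sided permutation test for 1 gene is 0.333, so none was used.

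**Figure D1:**
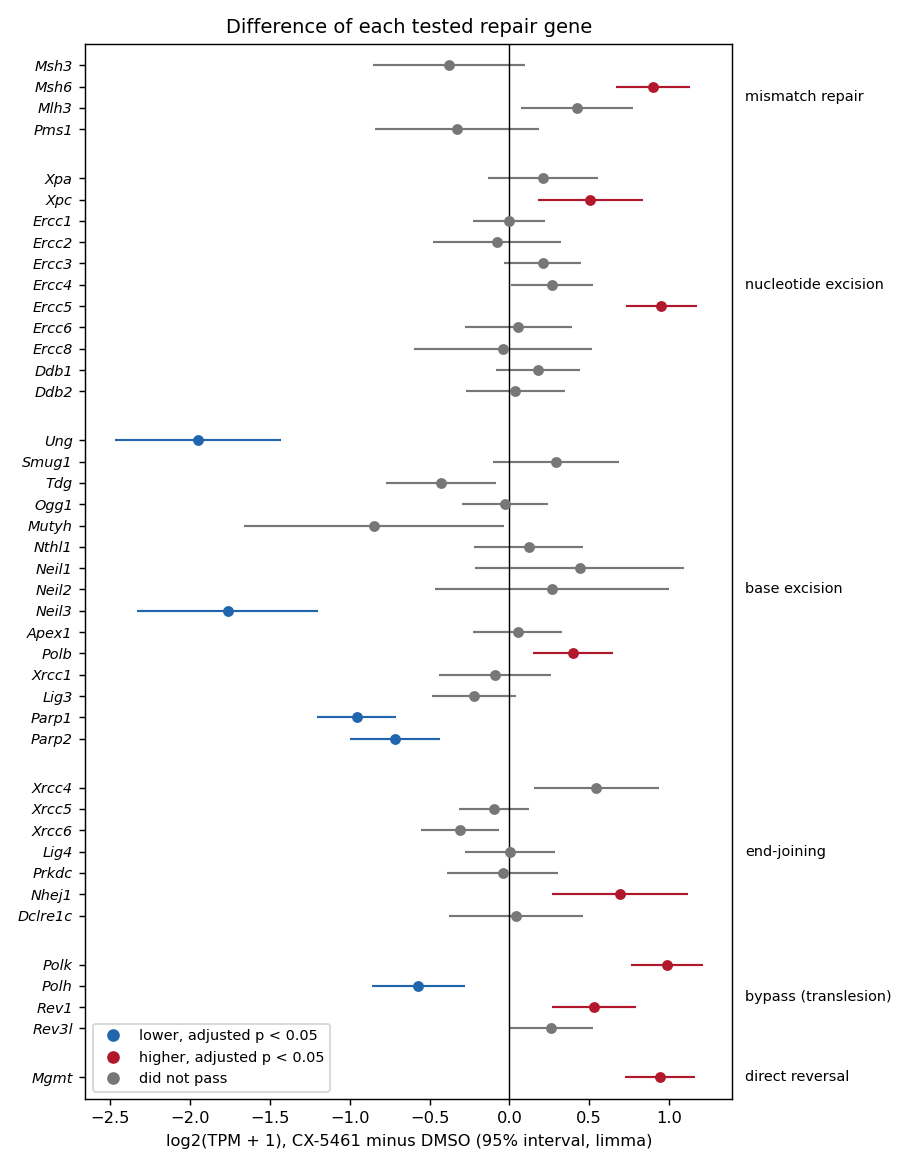
Difference in log2(TPM + 1) between CX-5461 and DMSO (x axis) for the 42 tested repair genes, grouped by pathway, with 95% intervals from limma (n = 2 libraries per group). Blue and red points passed an adjusted p under 0.05, and grey points did not; Ung and Neil3 lie far to the left of every other gene.

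The genes with the largest falls and rises are shown by the 250 bases upstream of the RefSeq transcription start (GRCm38.p6, on each gene's strand, 5′ to 3′), as these genes moved in opposite directions. Capitals mark 2 elements searched on both strands, the CCAAT box and the cell cycle homology region (CHR, letters TTTGAA, here on the reverse strand). The stretches are chr5:114130185-114130434 (plus strand) for Ung, chr8:53639066-53639315 (minus) for Neil3, chr13:96542580-96542829 (minus) for Polk, whose start nearest the 5′ end of the gene was taken from 2, and chr1:44147494-44147743 (plus) for Ercc5.
Ung: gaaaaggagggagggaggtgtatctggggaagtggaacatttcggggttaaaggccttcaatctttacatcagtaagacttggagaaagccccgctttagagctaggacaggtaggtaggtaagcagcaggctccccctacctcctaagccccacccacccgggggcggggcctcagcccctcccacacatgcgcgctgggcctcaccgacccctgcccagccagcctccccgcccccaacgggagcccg
Neil3: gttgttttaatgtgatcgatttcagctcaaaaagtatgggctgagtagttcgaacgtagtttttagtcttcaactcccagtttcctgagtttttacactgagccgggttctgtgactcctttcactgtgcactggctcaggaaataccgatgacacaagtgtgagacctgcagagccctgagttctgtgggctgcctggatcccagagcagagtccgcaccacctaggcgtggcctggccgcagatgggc
Polk: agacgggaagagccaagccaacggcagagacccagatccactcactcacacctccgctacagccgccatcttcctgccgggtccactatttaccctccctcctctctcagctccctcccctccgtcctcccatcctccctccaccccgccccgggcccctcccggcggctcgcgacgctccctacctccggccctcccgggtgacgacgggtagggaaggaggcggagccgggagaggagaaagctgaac
Ercc5: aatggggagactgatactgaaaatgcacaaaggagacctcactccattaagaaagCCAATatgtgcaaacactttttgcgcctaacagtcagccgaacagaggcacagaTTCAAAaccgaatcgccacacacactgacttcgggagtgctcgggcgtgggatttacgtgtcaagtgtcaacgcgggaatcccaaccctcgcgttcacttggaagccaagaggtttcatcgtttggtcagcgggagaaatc

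A search on both strands found none of the E2F-type letters TTTCCCGC, TTTGGCGC or TTCCCGCC in these 4 stretches, and only Ercc5 held the CHR and the CCAAT box. TTTCCCGC and TTCCCGCC can overlap. RefSeq promoters matched 36 of the 43 genes by symbol, at 41 start sites. An E2F-type motif stood at 2 of the 41 (4.88%, in front of Msh3 and Xrcc6) and at 2.69% of all 32851 promoters. The CHR letters stood at 2.44% of the repair promoters and 16.0% of all, and those of the CCAAT box at 48.8% and 33.9%. The core of p53 response elements, CATG, stood at 51.2% and 54.0%. None of the 5 start sites of genes that fell held a CHR, a CCAAT box or an E2F-type motif. These are matches of letters within 250 bases and say nothing of factor binding.

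Base excision repair held the falls of Ung and Neil3, the largest among the 42 tested members in mean TPM ratio. Of 15 genes, 4 fell (26.7%, beside 8.21% of all genes tested), 1 rose (6.67%, beside 11.6%) and 10 did not pass (median -0.09). The falls were those of 2 glycosylases and 2 poly(ADP-ribose) polymerases. Ung, the main glycosylase against uracil in DNA (chromosome 5, 114130386 to 114139323, mm10), stood at 5.90 and 4.75 TPM in the DMSO libraries and at 0.641 and 0.617 TPM in the CX-5461 libraries. The treated mean was 11.8% of the DMSO mean, and the log2 difference was -1.95 (SE 0.21, limma adjusted p = 0.00351). Recovered read numbers were 663 and 601 against 72 and 68, so the low values rest on few reads, and on fewer fragments if both mates of a pair were counted. Neil3, a glycosylase of oxidised bases and of crosslinked strands that is mostly made in proliferating cells (chromosome 8, 53586867 to 53639065), stood at 3.98 and 3.36 TPM with DMSO and 0.421 and 0.321 TPM with CX-5461. The groups were far apart, at 10.1% of the DMSO mean (log2 difference -1.77, limma adjusted p = 0.00602, reads 454 and 432 against 48 and 36). Ung and Neil3 passed the filter on low values through the DMSO libraries, and both also passed without any filter. Their log2 differences depend on the pseudocount: with 0.1 they were -2.89 for Ung and -3.00 for Neil3, and with 5 they were -0.87 and -0.69. With 5, that of Parp1 was -0.89 and the largest of the falls on this scale.

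Parp1, which senses strand breaks and marks them with poly(ADP-ribose) (chromosome 1, 180568924 to 180601254), was far more abundant and fell by a smaller factor. It stood at 85.1 and 75.0 TPM with DMSO and at 41.9 and 39.6 TPM with CX-5461 (50.9% of the DMSO mean, log2 difference -0.96, SE 0.10, limma adjusted p = 0.00322). Parp2, its partner enzyme (chromosome 14, 50807841 to 50821301), stood at 17.3 and 16.2 against 9.61 and 10.0 TPM (58.5%, log2 difference -0.72, adjusted p = 0.0115). The replicates of each group were close for both genes, and the groups did not overlap. Without CX-5461 replicate 3 the limma adjusted p was 0.0558 for Neil3, 0.0559 for Parp1 and 0.0973 for Parp2, and without CX-5461 replicate 2 it was 0.0938 for Parp2. Ung passed whichever library was left out.

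None of the other 7 glycosylases among the members passed. Smug1, a second uracil glycosylase, stood at 12.4 and 9.35 TPM with DMSO and 12.9 and 13.9 TPM with CX-5461 and did not pass (log2 difference 0.29, 95% interval -0.10 to 0.69). Ogg1, which removes 8-oxoguanine, stood at 16.8 and 16.5 against 15.5 and 17.1 TPM, with overlapping groups and an interval of -0.30 to 0.24. Nthl1, which acts on oxidised pyrimidines, stood at 6.97 ± 0.136 and 7.67 ± 0.580 TPM (mean ± SD, n = 2), and its groups were apart without passing. Neil1, of related specificity, stood at 8.16 and 8.27 against 8.59 and 15.3 TPM, and its treated libraries differed widely. Neil2 lay near the limit, at 0.810 to 1.98 TPM over the 4 libraries. Mutyh, which removes adenine opposite 8-oxoguanine, stood at 2.50 and 2.02 against 0.373 and 1.37 TPM. Its groups did not overlap, but its 2 treated libraries differed widely and it did not pass (log2 difference -0.85, interval -1.66 to -0.04, limma adjusted p = 0.127). Tdg, the thymine glycosylase that also takes part in active DNA demethylation, stood at 20.5 and 16.7 against 12.8 and 14.3 TPM (log2 difference -0.43, limma adjusted p = 0.0863, and 0.0312 to 0.0357 under the 3 other scalings). Its recovered reads were not whole numbers in 3 of 4 libraries (tolerance 0.1), and its exons overlap those of Glt8d2, which fell (log2 difference -0.93).

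**Figure D2:**
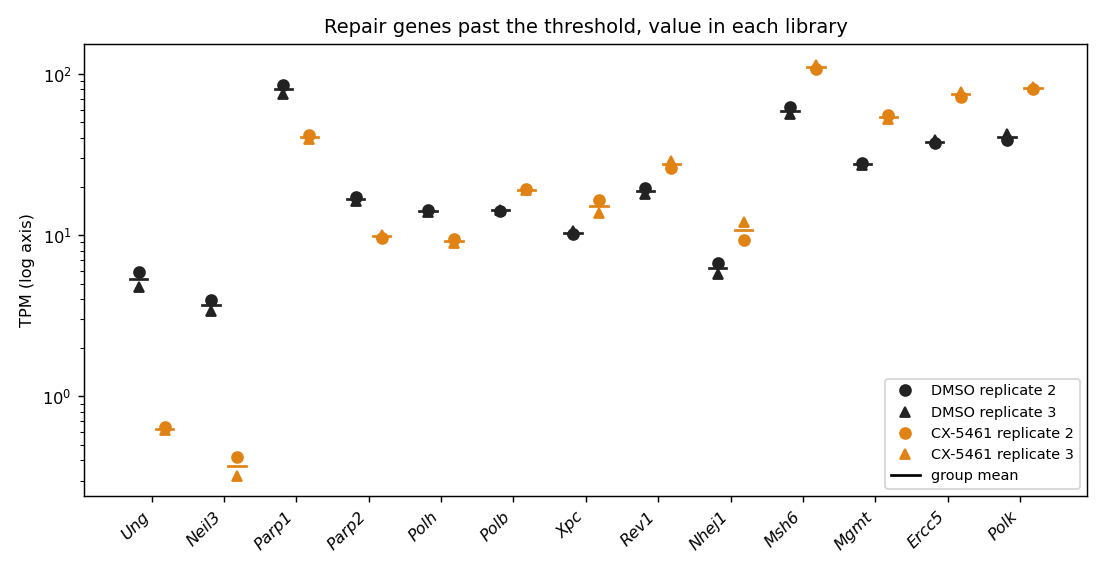
TPM in each library (log axis) for the 13 repair genes past the threshold, ordered from the largest fall to the largest rise; black marks DMSO, orange CX-5461, circles replicate 2, triangles replicate 3, and bars the group mean. The groups are apart for each of the 13 genes, which were chosen by the test on these same libraries. Ung and Neil3 lie below 1 TPM after CX-5461.

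Downstream of the glycosylases, 1 of 4 genes passed. Apex1, the main abasic-site endonuclease, stood at 102 and 84.4 TPM with DMSO and 95.3 and 97.1 TPM with CX-5461 (interval of the log2 difference -0.23 to 0.33). Of its exon length, 61.7% overlaps exons of Pip4p1 on the opposite strand, and no source used here says whether counting used strand, so reads of the pair cannot be told apart. Pip4p1 had means of 49.1 and 53.3 TPM and did not pass. Polb, the gap-filling polymerase, stood at 14.2 and 14.4 against 19.3 and 19.0 TPM and rose (log2 difference 0.40, limma adjusted p = 0.0462). That call is marginal: the adjusted p was 0.0836 to 0.228 with any library left out and 0.0637 to 0.0806 under the 3 other scalings. Xrcc1, the scaffold of single-strand break repair, stood at 20.6 ± 0.811 and 19.4 ± 3.44 TPM, and its ligase partner Lig3 at 29.5 ± 2.78 and 25.1 ± 0.195 TPM, and neither passed. Lig3 shares 25.1% of its exon length with the opposite-strand gene Rffl, which did not pass (means of 8.23 and 9.14 TPM). In the wider list of 13 other base excision genes, 3 fell (23.1%, beside 8.21% of all genes tested), namely Lig1, Fen1 and Mbd4. In that list 1 rose (7.69%, beside 11.6%), Mpg, the glycosylase of alkylated purines (from 11.0 ± 0.216 to 17.2 ± 1.11 TPM, limma adjusted p = 0.0196). Lig1, the ligase of both long-patch repair and Okazaki fragments, had a mean of 36.9 ± 0.131 TPM with DMSO and 7.15 ± 0.447 TPM with CX-5461. For the flap endonuclease gene Fen1 the means were 24.5 ± 4.84 and 8.39 ± 0.338 TPM.

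Bypass repair split by polymerase. Polk, the Y-family polymerase that copies past bulky minor-groove adducts (chromosome 13, 96480690 to 96542579), stood at 38.8 and 42.6 TPM with DMSO and at 80.2 and 82.8 TPM with CX-5461. The treated mean was 2.00 times the DMSO mean (log2 difference 0.99, SE 0.09, limma adjusted p = 0.0022), and the call held with each library left out (adjusted p up to 0.0466). Polh, which bypasses ultraviolet dimers and is the product lost in the variant form of xeroderma pigmentosum, moved the other way, from 14.3 and 13.8 to 9.43 and 8.87 TPM (65.0%, log2 difference -0.57, limma adjusted p = 0.0246). Rev1, the scaffold on which inserter and extender polymerases exchange, stood at 19.5 and 17.9 against 26.2 and 28.7 TPM and rose (log2 difference 0.53, adjusted p = 0.0232). Rev3l, the catalytic subunit of the extender polymerase zeta, stood at 16.4 and 15.1 against 19.0 and 19.2 TPM, a log2 difference of 0.26 that missed the threshold (adjusted p = 0.137). The limma adjusted p of Polh was 0.0668 and 0.0724 without DMSO replicates 2 and 3 and 0.118 and 0.170 without CX-5461 replicates 2 and 3. That of Rev1 was 0.0768, 0.110 and 0.188 without DMSO replicate 3, CX-5461 replicate 2 and CX-5461 replicate 3. Exons of Rev1 overlap those of Eif5b on the opposite strand over 26.6% of their length. Here too the strand used in counting is unknown. Eif5b had means of 82.6 and 79.1 TPM and did not pass.

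Among 11 tested genes that act around the bypass polymerases, 3 fell (27.3%, beside 8.21% of all genes tested), 0 rose and 8 did not pass. Those that fell bear on the sliding clamp PCNA: the clamp gene Pcna itself (152 ± 4.50 to 49.3 ± 3.94 TPM), Rad18, the ligase that marks the clamp with ubiquitin (log2 difference -1.59), and Usp1, which removes the mark (90.5 ± 1.45 to 26.9 ± 1.06 TPM). The polymerase genes Polk and Rev1 thus stood higher in the same libraries in which Pcna, Rad18, Usp1 and the polymerase gene Polh stood lower. The 8 other genes of this list all had positive differences (median of the whole list 0.12), and none of these 8 passed.

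Of 11 nucleotide excision genes 2 rose, 0 fell and 9 did not pass. The share that passed, 18.2%, was near the 19.8% of all genes tested. The median difference was 0.18, beside 0.07 over all genes. Ercc5, the nuclease that cuts 3′ of the lesion (chromosome 1, 44147744 to 44181260), stood at 37.1 and 38.9 TPM with DMSO and 71.9 and 77.1 TPM with CX-5461 (1.96 times the DMSO mean, log2 difference 0.95, SE 0.09, limma adjusted p = 0.00229). It passed whichever library was left out. Xpc, the sensor of distorted DNA in global-genome repair (chromosome 6, 91489305 to 91515888), stood at 10.1 and 10.5 against 16.5 and 13.8 TPM. Its rise only just passed (log2 difference 0.51, limma adjusted p = 0.0494), and its adjusted p was 0.117 to 0.250 with any library left out and 0.0651 to 0.0726 under the 3 other scalings.

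The other 9 excision genes did not pass. Ercc1 and Ercc4, which together form the nuclease that cuts 5′ of the lesion, stood at 40.6 ± 1.04 and 40.6 ± 2.27 TPM and at 17.8 ± 0.249 and 21.7 ± 1.43 TPM. Xpa, which verifies the lesion, stood at 28.1 and 26.6 TPM with DMSO and at 36.2 and 28.0 TPM with CX-5461. The helicases of TFIIH, Ercc3 and Ercc2, stood at 76.5 ± 4.91 and 88.6 ± 6.57 TPM and at 10.1 ± 1.99 and 9.38 ± 0.181 TPM. Ercc6 and Ercc8, the Cockayne syndrome genes that start repair at stalled RNA polymerase II, stood at 9.03 ± 0.312 and 9.44 ± 0.946 TPM and at 2.08 ± 0.0797 and 2.01 ± 0.501 TPM. Ddb1, the adaptor of CUL4 ubiquitin ligases, was by far the most abundant repair gene, at 664 and 557 TPM with DMSO and 694 and 686 TPM with CX-5461. Its interval of -0.08 to 0.45 held 0, and it passed in the 1 setting without DMSO replicate 2 (adjusted p = 0.0308). Ddb2, its partner in the ultraviolet damage sensor, stood at 10.0 and 9.58 against 10.5 and 9.66 TPM (interval -0.27 to 0.35). Of its exon length, 23.8% overlaps exons of Acp2 on the opposite strand, which did not pass (means of 37.7 and 45.5 TPM). For Ercc2 the shares are 24.6% with Gm26852 and 17.8% with Klc3, both on the opposite strand. Since the strand used in counting is unknown, reads of these pairs cannot be told apart. Of 21 other excision genes, 4 fell (19.05%, beside 8.21% of all genes tested) and 1 rose (4.76%, beside 11.6%). The falls were those of Lig1 and of Rpa1, Rpa2 and Rpa3, the subunits of the single-strand binding protein RPA. The rise was that of the TFIIH subunit Gtf2h5 (21.0 ± 0.287 to 30.5 ± 1.44 TPM, limma adjusted p = 0.018). Rpa2 fell from 20.9 ± 0.264 to 6.74 ± 1.01 TPM.

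Ercc5, Xpc, Polk, Polh and Ddb2 have been described as genes that p53 can induce in human or mouse cells. The species were not separated here, so the list may hold genes that p53 does not induce in mouse. Of these 5, 3 rose (Xpc only just), Polh fell and Ddb2 did not pass. Among all genes tested, 11.6% rose and 8.21% fell. In the same libraries 10 of 12 p53 targets used for context rose and 0 fell (summed TPM 3498 and 3284 with DMSO against 6053 and 6533 with CX-5461). The list was drawn with earlier results of these data known, and whether p53 took part in the rises was not tested.

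**Figure D3:**
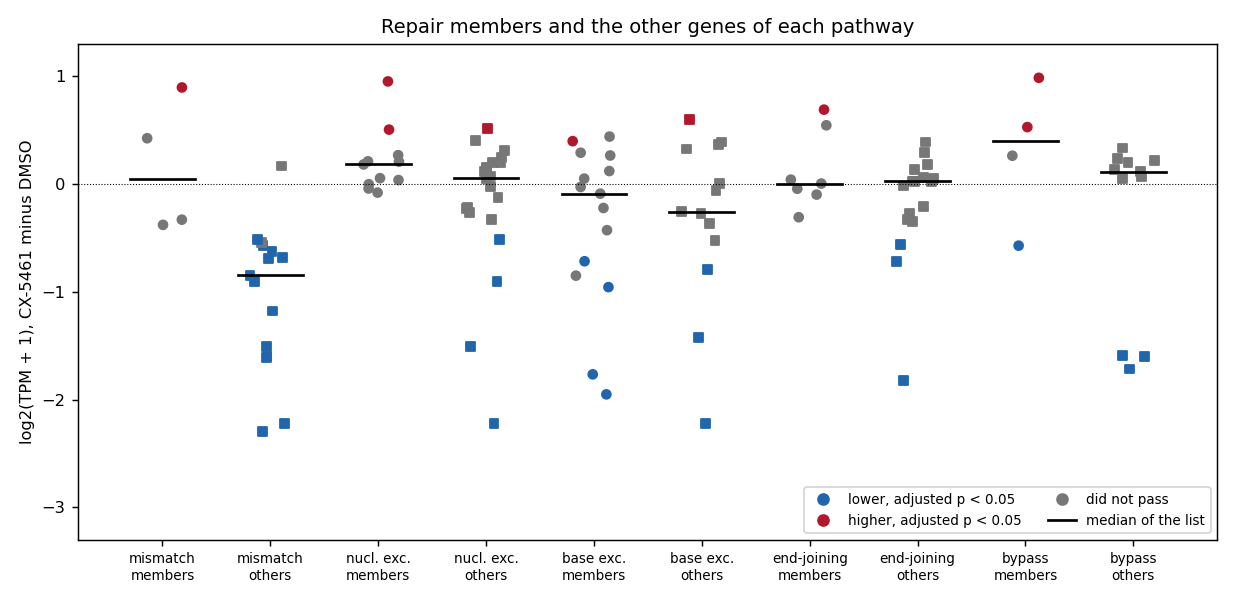
Differences in log2(TPM + 1), CX-5461 minus DMSO, for the repair genes (circles) and the other genes (squares) of each pathway; black lines are list medians, blue and red passed an adjusted p under 0.05. Replication-linked genes recur in several lists of other genes, and that of mismatch repair has a median of -0.84 while its members have 0.05.

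Mismatch repair had 4 tested members, of which 1 rose (25.0%, beside 11.6% of all genes tested). Msh6, the partner that recognises single mismatches and short loops (chromosome 17, 87975062 to 87990892), stood at 61.8 and 56.0 TPM with DMSO and 107 and 114 TPM with CX-5461. Both treated libraries were higher than both controls, at 1.88 times the mean (log2 difference 0.90, SE 0.09, limma adjusted p = 0.00322), and the adjusted p was 0.0591 without CX-5461 replicate 3. Exons of Msh6 meet those of Fbxo11 tail to tail over 34 bases, and Fbxo11 did not pass (log2 difference -0.04). Msh3, the alternative partner for larger loops, stood at 3.76 and 3.59 against 2.28 and 2.95 TPM and did not pass (log2 difference -0.38, interval -0.85 to 0.10). Mlh3 and Pms1, both of the MutL family, stood at 10.2 ± 0.626 and 14.1 ± 1.97 TPM and at 2.80 ± 0.407 and 2.02 ± 0.265 TPM, and neither passed. Pms2 was below the filter at 0.469 to 1.42 TPM, and its recovered reads were not whole in 3 of 4 libraries (tolerance 0.1).

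Behind mismatch recognition come the excision and resynthesis factors, which also serve the replication fork, taken as a list of their own. The median of the 15 tested was -0.84. Of these, 13 fell (86.7%, beside 8.21% of all genes tested), 0 rose and 2 (Pold4 and Rfc4) did not pass. Those with the smallest adjusted p were Lig1 (log2 difference -2.22) and Pcna (-1.60). Over the other genes of all pathways, 20 of 71 tested fell (28.2%) and 2 rose (2.82%). Of the 42 members, 5 fell (11.9%) and 8 rose (19.05%). Over all genes tested, 8.21% fell and 11.6% rose. The difference between these lists was not tested.

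Of 7 end-joining genes 1 rose, 0 fell and 6 did not pass (median 0.00). The share that passed, 14.3%, lay below the 19.8% of all genes tested. Nhej1, also called XLF, which bridges broken ends (chromosome 1, 74967139 to 75125200), stood at 6.70 and 5.72 TPM with DMSO and 9.32 and 12.1 TPM with CX-5461 (log2 difference 0.69, SE 0.17, limma adjusted p = 0.0422). The groups were apart, but the adjusted p was 0.0722 to 0.240 with any library left out and 0.061 without limma's trend and robust options. Xrcc4, its filament partner, stood at 3.53 and 3.98 against 5.70 and 6.18 TPM, with the groups apart but short of the threshold (log2 difference 0.55, adjusted p = 0.0646). Xrcc6 and Xrcc5, the Ku70 and Ku80 subunits that first bind an end, stood at 29.5 ± 1.32 and 23.7 ± 1.24 TPM and at 50.8 ± 0.337 and 47.5 ± 2.48 TPM. Xrcc6 did not pass (-0.31, adjusted p = 0.082) but passed under the 3 other scalings (0.0309 to 0.0336). Prkdc, the catalytic subunit of DNA-dependent protein kinase, stood at 10.2 and 8.85 against 8.67 and 9.73 TPM, and Lig4, the ligase of the final step, at 11.8 and 12.4 against 12.1 and 12.1 TPM. The groups overlapped for both, with an interval of -0.28 to 0.29 for Lig4. Dclre1c, the Artemis nuclease, stood at 3.77 ± 0.0940 and 3.91 ± 0.423 TPM. Of 18 other end-joining genes 3 fell (16.7%, beside 8.21% of all genes tested) and 0 rose. One fall was that of Polq, the polymerase of the alternative, microhomology-mediated route (3.76 ± 0.406 to 0.357 ± 0.249 TPM). The others were those of Rif1, which shields ends from resection (15.1 ± 0.174 to 8.81 ± 0.0932 TPM), and Nbn (log2 difference -0.56).

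Direct reversal was represented by Mgmt, which takes the methyl group off O6-methylguanine and is consumed in doing so (chromosome 7, 136894614 to 137130266). It stood at 28.0 and 27.3 TPM with DMSO and at 55.9 and 52.4 TPM with CX-5461 (1.96 times the DMSO mean, log2 difference 0.94, SE 0.09, limma adjusted p = 0.00239). The replicates of each group nearly coincided, and the call held with each library left out (adjusted p up to 0.0442). The dioxygenases Alkbh2 and Alkbh3, which reverse other alkyl lesions, did not pass.

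**Figure D4:**
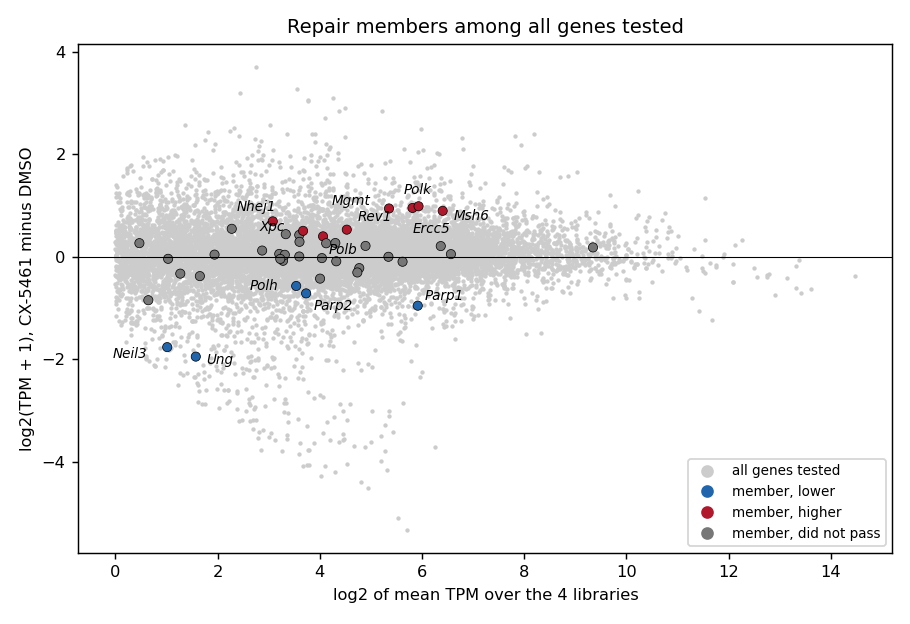
Difference in log2(TPM + 1) against log2 of the mean TPM for all 14621 genes tested (grey) and the repair genes (colour); named genes passed an adjusted p under 0.05. Msh6, Polk, Ercc5 and Mgmt form a group of well-expressed genes near a difference of 1, and Ung and Neil3 lie among low genes with larger falls.

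The repair genes that passed differed in level as well as in direction. The 4 with the largest rises had DMSO means of 27.7 to 58.9 TPM and came from 4 different pathways, and the 2 with the largest falls had DMSO means under 6 TPM. Level and direction did not go together throughout. Parp1, which fell, had the highest DMSO mean of the 13 (80.1 TPM), and Nhej1, which rose, had 6.21 TPM. Of the 29 genes that did not pass, 27 had a 95% interval within a 2-fold change of TPM + 1 either way. The exceptions were Mutyh and Neil1. For low genes such as Neil2, Msh3 and Pms1, that limit allows changes in TPM itself of more than 2-fold. Among the 13 that passed, 3 had a change in mean TPM of at least 2-fold: Ung and Neil3 fell and Polk rose. Mutyh, which did not pass, had a treated mean at 38.5% of the DMSO mean.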

How the data were processed

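Poly(A) RNA from 4 libraries was sequenced as paired-end reads of 150 bases, per the labels' protocols. The authors deposited TPM values, and the submitters' processing notes list build mm10. Aligner, counter, annotation and counting strand: not given in the sources used here. Because TPM is relative to the library total, a rise of abundant genes lowers all others. Groups came from sample titles and 0 table columns were left unused. The 43 members and every gene list were chosen with earlier results of these data known. All members are named, and of other lists the 2 genes with the smallest adjusted p in each direction plus those behind small counts, chosen after their values were seen.

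The test was limma 3.58.1 (R 4.3.3; trend and robust, no covariate, 2 residual and 3.75 prior degrees of freedom) on log2(TPM + 1), for every gene whose mean reached 1 TPM, with Benjamini-Hochberg adjustment over 14621 genes. Alternatives changed the pseudocount (0.1 or 5), the filter (none, or 5 TPM), the scaling (median-of-ratios, quantile, or rescaling that omits 13 mitochondrially encoded and the 20 highest genes) and the limma options, added a replicate block, or left out each library, where the lone library is assumed to vary like the other group. Reads were recovered as TPM times GENCODE M21 exon length, in steps of the smallest unit per library, giving 69.9M to 74.6M per library; of values up to 10000 reads, 59.0% to 60.0% were whole (tolerance 0.01). About 81% of the whole values were even (80.7% to 81.0% per library), so a step may be 1 mate of a pair and the fragments fewer than the reads. They describe depth only. Member coordinates come from GENCODE M21 (mm10). The procedure was tested on simulated data for the CX-5461 and DMSO comparison (14151 genes). It recovered 86.6% of 67 genes changed 1.5-fold, 100% of 67 changed 2-fold and 98.5% of 66 changed 4-fold. All were simulated at a dispersion of 0.00514. Of 222 calls 32 were false, more than the threshold promises. The genes changed were a far smaller part of those simulated than the 19.8% that passed in the data. The share of false calls may therefore differ in the data. Recovery was not measured separately for low genes such as Ung, Neil3, Msh3 and Pms1, so the recovery shares cannot be carried over to them. Figures used matplotlib 3.10.9.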

Additional observations from a re-analysis of the deposited data

How the results depend on the processing

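Ercc5, Polk, Mgmt and Ung passed under every alternative in which they were tested, and none of the 13 calls changed direction under any alternative run. The count of repair genes that fell (5) became 3 with the filter of 5 TPM, which leaves out Ung and Neil3, and the count that rose (8) became 4 without a filter. With 1 library left out, the counts ranged over 1 to 4 lower and 3 to 6 higher, and the median (0.05) over 0.02 to 0.10. That median was 0.12 with the filter of 5 TPM, 0.034 under quantile normalization, -0.016 under median-of-ratios and -0.029 under rescaling. By pathway, the count of nucleotide excision genes that rose (2) became 1 without a filter, under each of the 3 other scalings, without limma's trend and robust options and with the replicate block, and ranged over 1 to 2 with 1 library left out. Under the same settings that of base excision genes that rose (1) became 0, also with any library left out, and base excision genes that fell (4) became 2 with the filter of 5 TPM and ranged over 1 to 4. End-joining genes that fell (0) became 1 under the 3 other scalings, and those that rose (1) became 0 without a filter and with any library left out. Bypass genes that rose (2) became 1 without a filter and ranged over 1 to 2, those that fell (1) became 0 with any library left out, and mismatch genes that rose (1) ranged over 0 to 1. The median of mismatch genes (0.05) was 0.33 without a filter and 0.66 with that of 5 TPM, as other genes were tested, and ranged over 0.025 to 0.16 with 1 library left out. Those of nucleotide and base excision genes ranged over 0.055 to 0.25 and -0.23 to 0.037, and under the 3 other scalings they were 0.099 to 0.11, against 0.18, and -0.17 to -0.15, against -0.09. The base excision median was -0.027 with the filter of 5 TPM. The mismatch median was -0.0089 under median-of-ratios and -0.030 under rescaling, and that of end-joining genes (0.0049) lay between -0.073 and -0.012 under the 3 scalings. Over all genes, 1694 rose in the analysis reported and 1051 without a filter and 1128 without limma's trend and robust options, and 1201 fell. With 1 library left out 218 to 2067 rose and 337 to 891 fell. Median-of-ratios scaling gave 1637 rising and 1678 falling genes, quantile normalization 1638 and 1646, and rescaling 1568 and 1762. Where not stated, the cause was not tested.

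Reversals of sign, 25 in 11 genes, concerned none that had passed. Median-of-ratios scaling gave Ercc6 -0.0075, Ddb2 -0.025, Apex1 -0.018, Lig4 -0.059 and Dclre1c -0.014. Rescaling gave Ercc6 -0.021, Ddb2 -0.039, Apex1 -0.032, Lig4 -0.073 and Dclre1c -0.026. Quantile normalization gave Apex1 -0.048 and Lig4 -0.012. With 1 library left out, the log2 difference ranged over -0.057 to 0.055 for Ercc1, -0.26 to 0.11 for Ercc2, -0.038 to 0.15 for Ercc6, -0.21 to 0.13 for Ercc8, -0.020 to 0.095 for Ddb2 and -0.090 to 0.037 for Ogg1. It ranged over -0.084 to 0.19 for Apex1, -0.26 to 0.084 for Xrcc1, -0.029 to 0.039 for Lig4, -0.14 to 0.049 for Prkdc and -0.047 to 0.13 for Dclre1c.

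The deviations of same-numbered libraries from their group means correlated at 0.03 over genes. This value alone cannot show whether such libraries shared a culture or a batch. With the replicate block, 5 repair genes fell and 6 rose, against 5 and 8, and Xpc (adjusted p = 0.0623) and Polb (0.0794) did not pass. Without limma's trend and robust options Xrcc4 passed (adjusted p = 0.0448) and Nhej1 did not (0.061). Mutyh and Neil2 rest on 20 to 200 reads per library, which limits what can be seen of them.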
